A study of Mus musculus with 40 samples.

Results

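The 8 genes described here encode leukocyte receptors of the CC and CX3C chemokine families, 1 ligand and 2 atypical receptors: Ccr1, Ccr2, Ccr3, Ccr7, Cx3cr1, its ligand Cx3cl1, Ccrl2 and Ackr1. They were taken by symbol from 45706 Ensembl genes, without regard to their values, and all 8 had a count and an RPKM value (reads scaled by transcript length and by library size) in each of 40 RNA sequencing libraries. The study sequenced sorted cells to ask how neutrophils of colon tumors hold back T cells. There were 10 groups of 4 libraries: neutrophils and monocytes from healthy blood, from tumor-bearing mice's blood and from colon tumors, and epithelial and stromal cells from healthy colon and from colon tumors.

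Tumor-bearing mice carried Cdx2CreERT2 and Apc fl/fl. A single intraperitoneal dose of tamoxifen at 25 mg/kg, given at 8 to 10 weeks of age per the labels, switched on Cre in the colon epithelium and deleted Apc there. Healthy mice were of the strain C57Bl6 and neither a transgene nor an agent is given for them, whereas the strain label of tumor-bearing mice names C57Bl6 and Sv129. Effects of the tumor, the strain, the transgene and tamoxifen therefore cannot be told apart between these mice. Sorted neutrophils were CD45+ EpCAM- CD11b+ MHCII- Ly6C-low Ly6G+, and monocytes were CD45+ EpCAM- CD11b+ MHCII- Ly6C-high Ly6G-. Epithelial cells were CD45- EpCAM+ and stromal cells CD45- EpCAM-. By their titles, 1 library of blood neutrophils of tumor-bearing mice and 3 of healthy blood monocytes each pooled a pair of mice.

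Chemokine receptors are membrane proteins that couple to inhibitory G proteins and steer leukocytes along gradients of their ligands. Ccr2 draws classical monocytes out of the marrow toward Ccl2, Ccr1 is shared by neutrophils and monocytes, Ccr3 marks eosinophils and basophils, and Ccr7 guides T cells and mature dendritic cells to lymph nodes. Cx3cr1 is most abundant on nonclassical monocytes, and its ligand Cx3cl1 is a membrane-bound chemokine that the proteases Adam10 and Adam17 release. Ccrl2 and Ackr1 are atypical: Ccrl2 binds chemerin without signaling through G proteins, and Ackr1 takes up chemokines on venular endothelium and erythroid cells.

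Libraries held 10717873 to 38002939 counts on genes, of which mitochondrial genes took 5.34% to 83.9%, the most in healthy epithelial library 4. The 6 neutrophil markers summed to 1904 to 19946 RPKM in the neutrophil libraries and to at most 187 in the monocyte libraries. Ly6g, the gene of the sorting antigen, was low in healthy blood neutrophils, at 1.47 to 8.28 RPKM against 1.25 to 5.93 in healthy blood monocytes. Tumor neutrophil library 1 had the lowest neutrophil sum, 1904 RPKM, and the highest epithelial sum of the leukocyte libraries, 126 RPKM. Tumor stromal libraries 1 and 2 stood apart from 3 and 4. Their endothelial sums were 4.64 and 4.25 RPKM against 133 and 145, their epithelial sums were 167 and 98.6 RPKM against 38.9 and 22.8, and mitochondrial genes took 55.4% and 62.9% of their counts against 27.4% and 24.8%. The 6 fibroblast markers summed to 355 to 2010 RPKM in healthy stromal libraries but to only 5.97 to 24 in tumor stromal libraries, so the defining genes of fibroblasts were low in the tumor stromal gate. In such bulk samples fewer cells of a type and less RNA per cell cannot be told apart.

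Of the 8 genes, 5 lie on mouse chromosome 9 (build mm10, GENCODE M21 gene models). Ccr1 (chr9:123962124-123968692), Ccr3 (chr9:124021972-124031689) and Ccr2 (chr9:124101950-124113557) sit within 151 kb of each other, with Ccr2 and Ccr3 on the plus and Ccr1 on the minus strand. Ccrl2 (chr9:111054486-111057519) and Cx3cr1 (chr9:119901616-120069879) are on the minus strand elsewhere on the same chromosome. Ccr7 is at chr11:99144196-99155077 and Ackr1 at chr1:173331886-173333750, both on the minus strand, and Cx3cl1 is at chr8:94772009-94782427 on the plus strand. RefSeq promoter entries (GRCm38.p6) matched 7 of the 8 genes. The 250 bases before the transcription start are shown for the 3 whose start differed by at most 1 base between RefSeq and GENCODE. Expression was not part of this choice. These genes rose in tumor monocytes (described below for each), as did Ccr7, which had no promoter entry. Capitals mark matches, on either strand, to a purine-rich ETS core (GAGGAA), an NF-kappaB motif or an AP-1 motif (TGANTCA):
Ccr1, chr9:123968693-123968942, minus strand: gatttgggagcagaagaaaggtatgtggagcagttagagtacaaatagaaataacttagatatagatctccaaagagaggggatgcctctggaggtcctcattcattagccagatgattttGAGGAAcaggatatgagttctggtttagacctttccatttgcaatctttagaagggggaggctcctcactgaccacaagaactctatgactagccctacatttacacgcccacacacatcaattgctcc
Ccr3, chr9:124021721-124021970, plus strand: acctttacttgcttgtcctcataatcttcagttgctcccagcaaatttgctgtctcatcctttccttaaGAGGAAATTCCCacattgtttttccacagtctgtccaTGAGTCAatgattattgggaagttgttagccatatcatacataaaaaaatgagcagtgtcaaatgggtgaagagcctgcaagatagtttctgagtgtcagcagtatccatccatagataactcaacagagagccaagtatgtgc
Ccrl2, chr9:111057519-111057768, minus strand: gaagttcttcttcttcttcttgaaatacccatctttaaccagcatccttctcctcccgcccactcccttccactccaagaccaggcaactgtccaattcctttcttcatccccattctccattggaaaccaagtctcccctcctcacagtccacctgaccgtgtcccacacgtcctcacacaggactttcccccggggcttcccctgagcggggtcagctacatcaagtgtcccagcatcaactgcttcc

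In the Ccr1 window the ETS core stood 129 to 124 bases before the start. The Ccr3 window held the same core at 181 to 176 bases, an NF-kappaB match on the opposite strand at 179 to 170 bases that overlaps it, and an AP-1 match at 144 to 138 bases. Among 32851 mouse promoter windows of this length, 23.3% held the ETS core, 0.356% the NF-kappaB motif and 6.75% the AP-1 motif. A C/EBP motif (TTGCNNAA, in 9.56% of windows), an IRF motif (2.98%) and TATAAA (12.4%) were searched too. None of the 6 matched the Ccrl2 window in these exact letters, and looser forms were not searched. These matches describe letters and no binding was measured.

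The 8 genes fell into distinct patterns across the groups, shown in the plot of RPKM by library. Ccr1 was highest in neutrophils, Ccr2 and Cx3cr1 in monocytes, and Ccrl2 in neutrophils and monocytes taken from tumors. Ackr1 was stromal, and Cx3cl1 was highest in epithelial and stromal cells. Ccr3 and Ccr7 were low in most libraries.

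**Figure D1:**
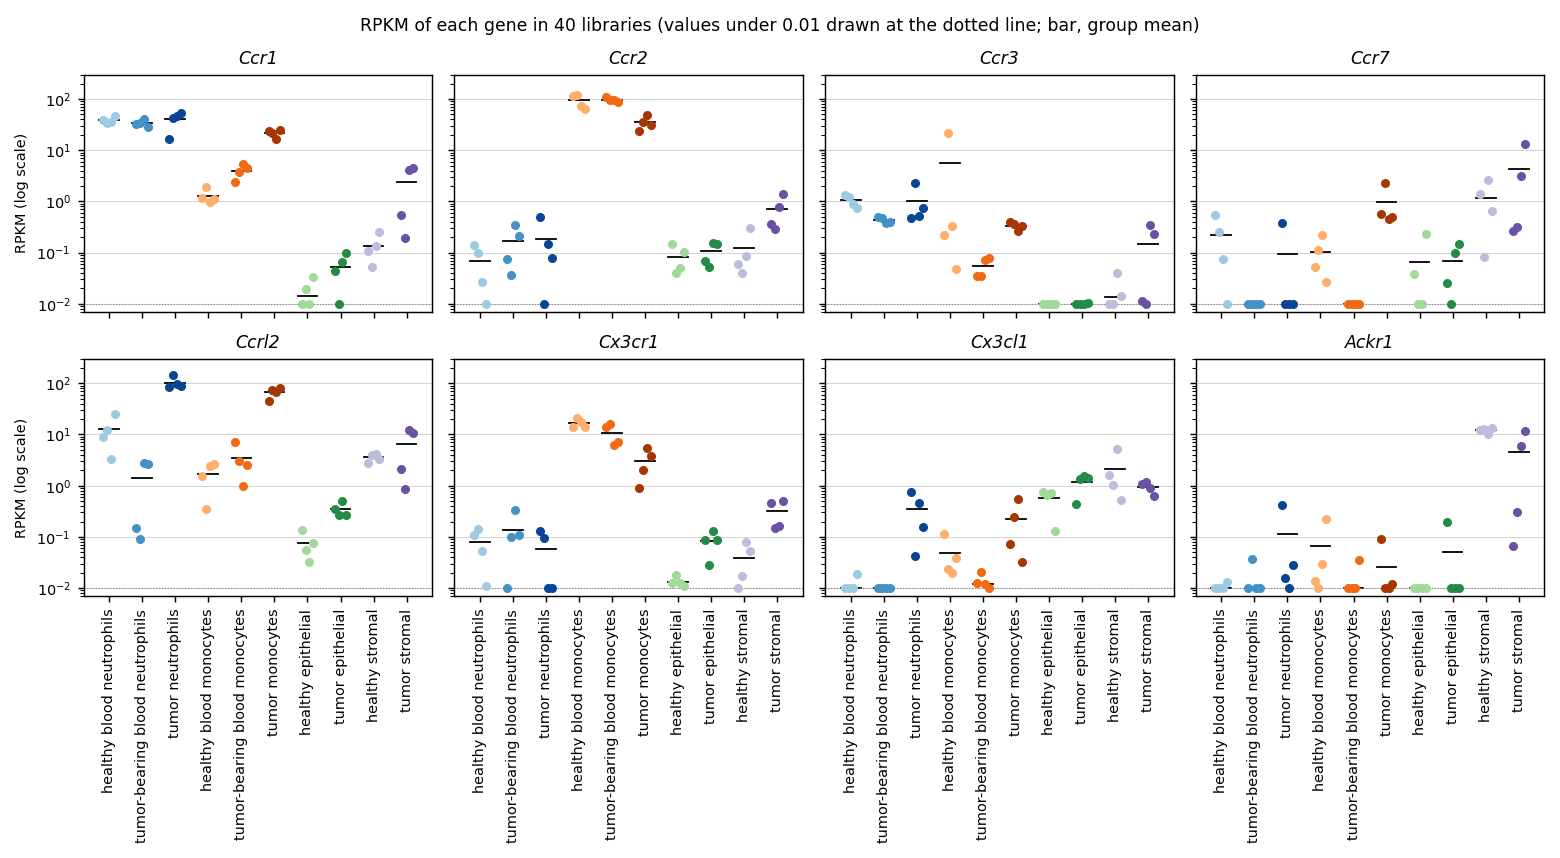
RPKM (log axis) of each of the 8 genes in the 40 libraries, with a point per library, 4 points per group and a bar at the group mean; values under 0.01 RPKM are drawn on the dotted line. Ccr2 lies between 23.9 and 122 RPKM in the 12 monocyte libraries and at most at 1.42 elsewhere, and Ccrl2 between 45.9 and 144 RPKM in the 8 libraries of tumor leukocytes and at most at 25.5 elsewhere.

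Neutrophils and monocytes of the blood carried different receptors. In tumor-bearing mice Ccr1 was at 32.5, 33.8, 40.2 and 28.7 RPKM in blood neutrophils and at 2.41, 3.79, 5.38 and 4.43 RPKM in blood monocytes. In healthy mice it was at 38.1, 34.5, 36.1 and 46.7 RPKM in neutrophils and at 1.15, 1.88, 0.974 and 1.10 RPKM in monocytes. Every neutrophil library exceeded every monocyte library in both kinds of mice. The log2 difference, neutrophils minus monocytes, was 3.79 ± 0.29 (SE, n = 4 and 4) in tumor-bearing and 5.71 ± 0.31 in healthy mice, with edgeR adjusted p = 6.44e-06 and 2.51e-06.

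Ccr2, the receptor by which classical monocytes leave the marrow, was at 108, 97.5, 95.1 and 89.0 RPKM in blood monocytes of tumor-bearing mice and at 116, 122, 74.4 and 63.4 RPKM in those of healthy mice. No blood neutrophil library exceeded 0.343 RPKM. The ratio of the means, monocytes to neutrophils, was 583 in tumor-bearing mice, with a log2 difference of -8.42 ± 0.72 (edgeR adjusted p = 1.12e-05), and the log2 difference in healthy mice was -9.73 ± 0.86 (adjusted p = 2.36e-05). Cx3cr1 was at 13.8, 16.3, 6.22 and 7.21 RPKM in blood monocytes of tumor-bearing mice and at 14.3, 21.0, 17.6 and 14.0 RPKM in those of healthy mice, against at most 0.340 RPKM in blood neutrophils. Its log2 difference, neutrophils minus monocytes, was -5.56 ± 0.88 (adjusted p = 0.000443) and -7.01 ± 0.57 (adjusted p = 1.59e-05).

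In each kind of mouse 4 of the 8 genes passed the test between blood neutrophils and monocytes, of 5 tested in tumor-bearing and 6 in healthy mice. The test here required an adjusted p under 0.05 and an absolute log2 difference above 1.5, and 38.0% of all genes tested in tumor-bearing mice and 37.1% in healthy mice passed it. Besides Ccr1, Ccr2 and Cx3cr1, the fourth gene was Ccr3 in tumor-bearing mice, higher in neutrophils by 3.71 ± 0.50 on the log2 scale (adjusted p = 0.000172), and Ccrl2 in healthy mice, higher in neutrophils by 3.63 ± 0.72 (adjusted p = 0.00231). Ccrl2 in blood of tumor-bearing mice overlapped between the cell types, with a log2 difference of -0.42 (adjusted p = 0.746). Between neutrophils and monocytes of the tumor Ccr2 and Cx3cr1 passed, 2 of 7 genes tested where 7.45% of all genes did. Ccr2 was at most at 0.491 RPKM in tumor neutrophils and at 23.9, 35.2, 49.5 and 31.4 RPKM in tumor monocytes (log2 difference -7.40 ± 0.95, adjusted p = 0.00193). Cx3cr1 was at most at 0.128 RPKM in tumor neutrophils and at 0.896, 2.00, 5.42 and 3.78 RPKM in tumor monocytes (-5.16 ± 1.11, adjusted p = 0.0179). The same animals gave libraries 2 to 4 of both tumor cell types, and with the animal as a block the Cx3cr1 difference missed the threshold at adjusted p = 0.0704. Leaving out tumor monocyte library 3 or 4 also raised its adjusted p over the threshold, at 0.0568 and 0.0551. For Ccr1, 3 of 4 tumor neutrophil libraries lay above every tumor monocyte library, but the difference missed the threshold (1.52 ± 0.47, adjusted p = 0.0739). It passed with the animal as a block (1.90 ± 0.29, adjusted p = 0.0165), with DESeq2 (0.0378) and without tumor neutrophil library 1, which was low (1.75, adjusted p = 0.00147).

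Between blood and tumor of tumor-bearing mice, monocytes changed most of the receptors tested. Ccr1, Ccr3, Ccr7 and Ccrl2 rose in tumor monocytes, 4 of 6 genes tested, where 11.7% of all genes tested passed in either direction and 7.76% rose. Ccr2 and Cx3cr1 were lower in every tumor library than in any blood library but did not pass both thresholds. All fits against blood of tumor-bearing mice used the same 4 blood libraries per cell type as the comparisons of blood cells.

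Ccrl2, the chemerin-binding receptor, was at 7.04, 3.11, 0.976 and 2.50 RPKM in blood monocytes and at 45.9, 73.2, 66.6 and 80.7 RPKM in tumor monocytes, with no overlap. The ratio of means was 19.6 and the log2 fold change 4.57 ± 0.52 (SE, n = 4 and 4, edgeR adjusted p = 0.000243). Ccr1 was at 2.41, 3.79, 5.38 and 4.43 RPKM in blood monocytes and at 23.6, 21.6, 16.2 and 24.6 RPKM in tumor monocytes, a ratio of means of 5.37 and a log2 fold change of 2.66 ± 0.29 (adjusted p = 0.000184). Tumor monocytes thereby lay above all blood monocyte and below all blood neutrophil libraries in Ccr1, while their neutrophil markers summed to at most 39.99 RPKM. Each library left out in turn, and each alternative processing run, kept both calls.

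Ccr3 and Ccr7 rose from very low levels. Ccr3 was at 0.0347, 0.0345, 0.0726 and 0.0789 RPKM in blood monocytes, at 0.401, 0.356, 0.264 and 0.329 RPKM in tumor monocytes, with a log2 fold change of 2.86 ± 0.61 (adjusted p = 0.00892). In a fit of all 40 libraries the adjusted p was 0.0967. Limma on log2 RPKM, where a pseudocount understates the change of low genes, kept the adjusted p under 0.05 but put the fold change under the threshold, at 0.34 with a pseudocount of 1 and 1.499 with 0.1. Ccr7 had at most 3 counts in each blood library and stood at 0.570, 2.33, 0.453 and 0.497 RPKM in tumor monocytes. Its mean was at least 38.6-fold higher in the tumor, and the lowest tumor library at least 16.4-fold, taking 3 counts per library as the floor (adjusted p = 0.0018). With a pseudocount of 1 its log2 fold change was 0.88, also under the threshold. Library 2, at 2.33 RPKM, was the highest. Defining genes of dendritic cells, which can carry Ccr7, were measured beside it. The 8 dendritic cell markers summed to 112, 191, 154 and 343 RPKM in tumor monocytes and to 173, 606, 15.6 and 28.3 RPKM in blood monocytes, so the sums overlapped while Ccr7 did not. Fscn1, a gene of migratory dendritic cells on that list, was at most at 0.0203 RPKM in tumor monocytes. Of the 8 markers, 7, 8, 5 and 6 had more than 3 counts in the 4 tumor monocyte libraries. The 6 T cell markers summed to 0.116 to 2.92 RPKM there and to 0.386 to 1.33 RPKM in blood monocytes. The gate was CD11b+ and MHCII-, while the dendritic cell list includes the MHCII genes H2-Aa and H2-Ab1. The part of dendritic cells or T cells in the Ccr7 rise was not tested.

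Ccr2 was at 108, 97.5, 95.1 and 89.0 RPKM in blood monocytes and at 23.9, 35.2, 49.5 and 31.4 RPKM in tumor monocytes, a level 2.78-fold lower in the tumor with no overlap. Its log2 fold change of -1.21 ± 0.24 passed the adjusted p (0.00667), as did 17.1% of all genes, but not the fold threshold. Cx3cr1 was at 13.8, 16.3, 6.22 and 7.21 RPKM in blood and at 0.896, 2.00, 5.42 and 3.78 RPKM in tumor monocytes, again with no overlap. The log2 fold change was -1.57 ± 0.53 with adjusted p = 0.0681. Limma-voom, DESeq2, a filter at 10 counts in every library and limma on log2 RPKM at either pseudocount each gave Cx3cr1 an adjusted p under 0.05, between 0.0197 and 0.0325, and so did leaving out tumor monocyte library 3, the highest of the tumor libraries (0.0236).

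Cx3cr1 is also a gene of nonclassical monocytes, whose 6 markers summed to 99.9, 94.3, 89.3 and 84.9 RPKM in healthy blood monocytes, to 68.7, 64.9, 26.9 and 31.2 RPKM in blood monocytes of tumor-bearing mice, and to 36.8, 68.8, 39.99 and 52.1 RPKM in tumor monocytes. Blood libraries 1 and 2 of tumor-bearing mice were high, and 3 and 4 low, in both the marker sum and Cx3cr1. Tumor libraries overlapped the blood libraries in the marker sum but not in Cx3cr1. Nonclassical monocytes are Ly6C-low and outside the Ly6C-high gate, and their part in these differences was not tested. The annotated Cx3cr1 span overlaps 9 other genes, among them Csrnp1, which stood at 11.9, 50.9, 22.4 and 18.6 RPKM in tumor neutrophils. Cx3cr1 itself averaged 0.0587 RPKM there. The part of reads shared with overlapping genes in the Cx3cr1 values was not tested.

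**Figure D2:**
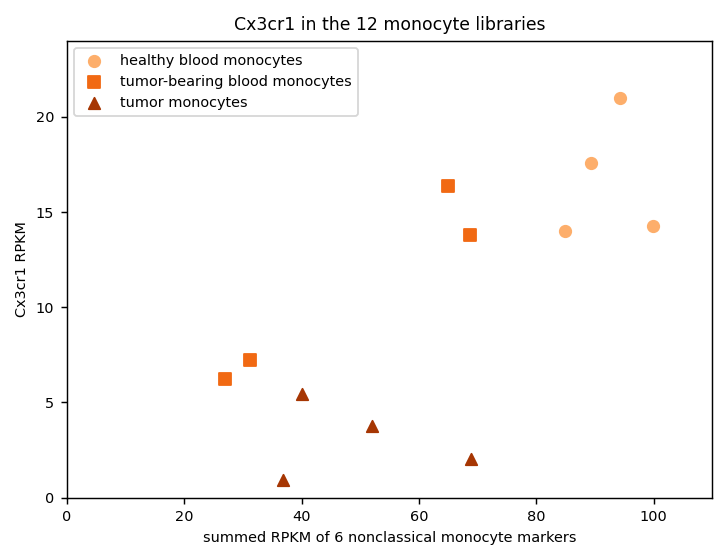
Cx3cr1 RPKM against the summed RPKM of 6 nonclassical monocyte markers in the 12 monocyte libraries, a point per library and a symbol per group. Tumor monocytes hold 0.896 to 5.42 RPKM of Cx3cr1 at marker sums of 36.8 to 68.8 RPKM, whereas blood monocytes of tumor-bearing mice hold 6.22 to 16.3 RPKM at sums of 26.9 to 68.7 RPKM.

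In neutrophils, Ccrl2 alone of the 5 genes tested passed between blood and tumor, where 16.3% of all genes tested passed. It stood at 0.150, 0.0891, 2.79 and 2.69 RPKM in blood neutrophils of tumor-bearing mice and at 84.4, 144, 95.8 and 89.9 RPKM in tumor neutrophils. Every tumor library was far above every blood library, the ratio of means was 72.3, and the log2 fold change was 6.29 ± 1.18 (SE, n = 4 and 4, edgeR adjusted p = 0.00487). The 8 fits that left out a library and all alternatives kept the call.

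Ccr1, already high in blood neutrophils, was at 16.6, 42.0, 46.2 and 54.2 RPKM in tumor neutrophils. Library 1 was the low one and the groups overlapped (log2 fold change 0.36 ± 0.44, adjusted p = 0.62). Ccr3 was at 0.496, 0.478, 0.380 and 0.402 RPKM in blood and at 0.481, 2.34, 0.512 and 0.742 RPKM in tumor neutrophils, with library 2 high (1.57 ± 0.75, adjusted p = 0.172). Ccr2, at most at 0.491 RPKM, and Cx3cr1, at most at 0.340 RPKM, did not pass. Ccr7 and Ackr1 were kept out by the filter on low counts, with at most 0.374 and 0.418 RPKM, both in tumor neutrophil library 1.

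Cx3cl1, normally an epithelial and endothelial ligand, had at most 3 counts in each blood neutrophil library and 0.758, 0.0421, 0.466 and 0.157 RPKM in tumor neutrophils. That mean is at least 27.5-fold higher, and the lowest library at least 2.70-fold. The filter on low counts kept it out of the test, and without that filter the adjusted p was 0.00859. The 6 epithelial markers summed to 126, 32.7, 28.4 and 9.78 RPKM in these 4 tumor neutrophil libraries and to at most 0.145 RPKM in blood neutrophils of tumor-bearing mice, and library 1 was highest in both. The 6 endothelial markers summed to 5.04, 0.449, 2.79 and 2.23 RPKM in tumor neutrophils and to at most 0.901 RPKM in blood. Library 1 was thus highest in Cx3cl1 and in both sums. The order of the 4 tumor libraries in Cx3cl1 was that of the endothelial sum and differed from that of the epithelial sum. Both cell types lie outside the CD45+ EpCAM- gate, and the part of their RNA in this Cx3cl1 level was not tested.

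An interaction term over the 16 leukocyte libraries of tumor-bearing mice asked if the blood-to-tumor change was unequal in neutrophils and monocytes. Ccr1 alone of 7 genes tested passed, where 3.95% of all genes did: its change was smaller in neutrophils than in monocytes by 2.41 ± 0.55 on the log2 scale (interaction -2.41, edgeR adjusted p = 0.0205). The call held in each of 16 fits that left out a library but not in a fit of all 40 libraries (adjusted p = 0.0994). For Ccrl2 the interaction was 1.61 (adjusted p = 0.45), so a difference between its rises in the 2 cell types was not detected.

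**Figure D3:**
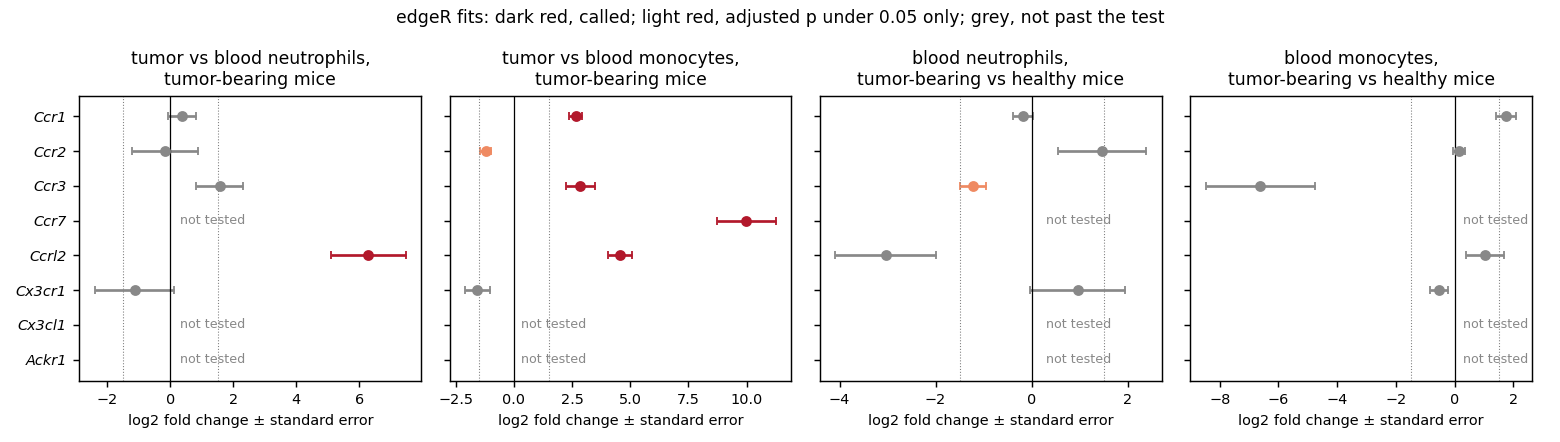
Log2 fold changes with standard errors from edgeR for each of the 8 genes in 4 comparisons of neutrophils or monocytes, with dotted lines at the fold threshold of 1.5; dark red points passed both thresholds, light red points the adjusted p alone, and genes kept out by the low-count filter are marked. In monocytes Ccrl2, Ccr1, Ccr3 and Ccr7 lie on the right, the first at 4.57, then 2.66 and 2.86, in neutrophils Ccrl2 alone (6.29), and no gene passed in the 2 comparisons of tumor-bearing with healthy mice; the point of Ccr7 depends on the prior count, since its blood libraries are at the floor.

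Blood cells of tumor-bearing and healthy mice were compared for differences in the circulating cells. None of 5 genes tested passed both thresholds in either cell type with edgeR, against 4.01% of all genes in neutrophils and 0.209% in monocytes. At an unadjusted p under 0.05, 2 of the 5 passed in neutrophils, Ccr3 and Ccrl2, and 2 in monocytes, Ccr1 and Ccr3. The share of all genes at that level is not given here, so these counts cannot be set against it. In neutrophils Ccrl2 was at 9.13, 12.4, 3.34 and 25.5 RPKM in healthy and at 0.150, 0.0891, 2.79 and 2.69 RPKM in tumor-bearing mice. The groups did not overlap and the ratio of means, healthy to tumor-bearing, was 8.80, but the spread was wide (log2 fold change -3.03 ± 1.05, adjusted p = 0.119). Limma-voom, limma on log2 RPKM at either pseudocount and a fit of all 40 libraries passed it, with adjusted p between 0.0401 and 0.0486. Ccr3 was at 1.33, 1.22, 0.902 and 0.761 RPKM in healthy and at 0.496, 0.478, 0.380 and 0.402 RPKM in tumor-bearing mice, with no overlap. Its log2 fold change of -1.22 ± 0.26 passed the adjusted p alone (0.024), as did 6.52% of all genes. The 8 eosinophil markers summed to 2.05 to 4.73 RPKM in healthy and to 1.31 to 2.78 RPKM in tumor-bearing blood neutrophils. Among them Siglecf, an eosinophil surface gene that some neutrophils also express, was at 2.04 to 3.72 RPKM in healthy and 1.28 to 1.99 RPKM in tumor-bearing blood neutrophils. Epx and Prg2, which define eosinophils, stayed under 0.001 RPKM in these 8 libraries. The part of eosinophil RNA in the Ccr3 difference was not tested. Ccr1 overlapped (-0.17, adjusted p = 0.675).

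In blood monocytes Ccr1 was at 1.15, 1.88, 0.974 and 1.10 RPKM in healthy and at 2.41, 3.79, 5.38 and 4.43 RPKM in tumor-bearing mice. Each tumor-bearing library exceeded each healthy library, with a ratio of means of 3.13, but the adjusted p was 0.0969 (log2 fold change 1.75 ± 0.35). DESeq2 gave 0.000346 and a filter at 10 counts in every library 0.0422. The neutrophil markers summed to 27.9, 108, 27.4 and 22.6 RPKM in the healthy and to 121, 78.8, 187 and 179 RPKM in the tumor-bearing libraries. Healthy library 2 was highest of its group in both the sum and Ccr1, and the part of neutrophil RNA in this difference was not tested. Ccr2 differed little in its means, 93.9 ± 29.4 RPKM (SD, n = 4) in healthy and 97.4 ± 7.92 RPKM in tumor-bearing mice (log2 fold change 0.16, adjusted p = 0.853). Cx3cr1 overlapped between the groups (-0.53, adjusted p = 0.631), and so did Ccrl2 (1.04, adjusted p = 0.644).

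Ccr3 in healthy blood monocytes rested on library 2, which held 21.6 RPKM and 3517 counts, while the other libraries were at 0.218, 0.338 and 0.0484 RPKM. This gave the comparison a log2 fold change of -6.62 ± 1.86 (adjusted p = 0.221). Alox15, an enzyme of eosinophils and macrophages, was also highest in that library, at 6.46 RPKM against 0.00687 to 0.326 RPKM in the other healthy libraries. The 8 eosinophil markers summed to 15.0 RPKM there, against 5.70, 5.06 and 3.39 RPKM in the others. Of these the ribonuclease genes Ear1 (3.72 RPKM) and Ear2 (4.26 RPKM), near-identical copies whose counts are uncertain, were also highest in library 2, at 1.48 to 2.31 and 1.70 to 2.62 RPKM in the others. Siglecf (0.0144 RPKM), Epx (1.81e-05 RPKM) and Prg2 (0.0700 RPKM) were near 0 there, and the part of eosinophil RNA in the Ccr3 level was not tested. The library pooled a pair of mice. Without it, Ccr3 passed the test between healthy blood neutrophils and monocytes, higher in neutrophils by 3.22 ± 0.57 (adjusted p = 0.00155), against -1.66 (adjusted p = 0.365) with it.

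From Ccr1 to Ccr2 the chromosome 9 region holds Ccr1, Ccr1l1, Ccr3 and Ccr2 in this order over 151 kb. Ccr1 and Ccr2, at its ends, had opposite patterns in blood, the first high in neutrophils and the second in monocytes. In tumor monocytes Ccr1 was higher and Ccr2 lower than in every blood monocyte library of tumor-bearing mice. Ccr1l1, a close relative next to Ccr1, stood at 4.38% to 7.49% of the Ccr1 RPKM in the 6 groups of neutrophils and monocytes. How reads that fit both were counted is not given in the sources used here, and their part in these values was not tested.

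**Figure D4:**
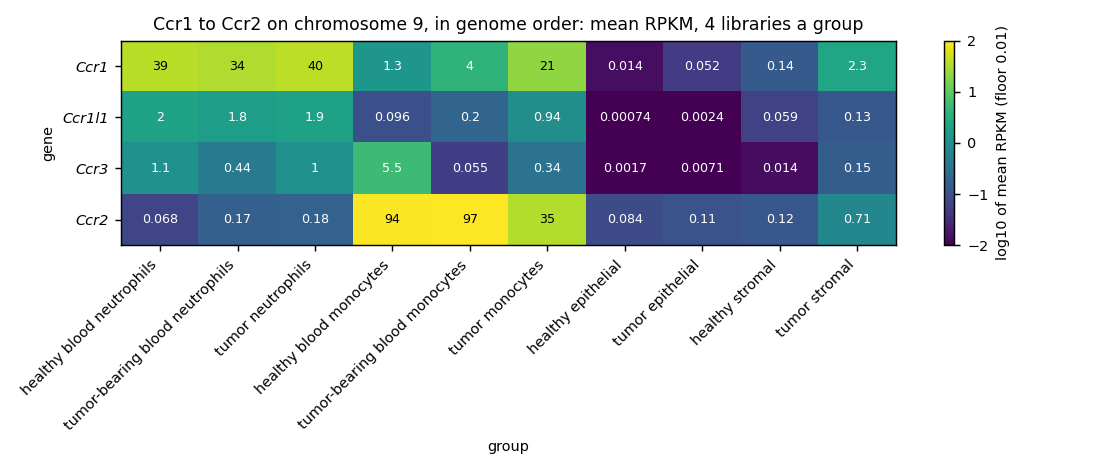
Mean RPKM (printed in each cell, colored on a log10 scale) of the 4 receptor genes from Ccr1 to Ccr2 on chromosome 9, in genome order from top to bottom, in the 10 groups of 4 libraries. The Ccr1 row is highest in the 3 neutrophil groups (33.8 to 39.7 RPKM) and the Ccr2 row in the 2 groups of blood monocytes (93.9 and 97.4 RPKM), with Ccr3, which lies between them, at most at 5.54 RPKM in any group.

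Among colon cells, Ackr1, the venular chemokine scavenger, was a stromal gene. It was at 12.1, 12.9, 10.1 and 13.1 RPKM in healthy stromal cells and at 0 in all 4 healthy epithelial libraries, which puts it at least 269-fold higher in stroma (3 counts per library as the floor, edgeR adjusted p = 3.95e-05). Ccrl2 also passed between these cells, at 2.75, 3.96, 4.25 and 3.32 RPKM in stroma against 0.0319 to 0.136 RPKM in epithelium (log2 difference 4.20 ± 0.71, adjusted p = 0.00156). These were 2 of 6 genes tested, where 30.9% of all genes passed. Without healthy epithelial library 4, the library with the most mitochondrial counts, Ccr1 and Ccr7 passed as well (adjusted p = 0.0303 and 0.0185).

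In tumor stroma Ackr1 split with the libraries, at 0.0672 and 0.303 RPKM in libraries 1 and 2 and at 6.03 and 11.9 RPKM in libraries 3 and 4. The 5 venular markers summed to 2.49 and 3.32 RPKM in the first pair and to 55.6 and 126 RPKM in the second, against 13.3 to 39.6 RPKM in healthy stroma. Cadm3, whose gene overlaps Ackr1 on the same strand, was at 2.67 to 18.4 RPKM in healthy and at 0.0599 to 0.979 RPKM in tumor stroma, so reads of the overlap are uncertain. Selp, the venular adhesion gene P-selectin, was at 0.528, 1.18, 18.6 and 54.1 RPKM in the 4 tumor stromal libraries. Where these markers were high, Ackr1 was thus at or under its healthy range, and where they were low it was low. The comparison of tumor with healthy stroma gave Ackr1 a log2 fold change of -1.12 ± 1.12 (adjusted p = 0.581). The part of endothelial content, or of the mitochondrial share that split the same libraries, in this was not tested.

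Ccr7 followed the same split, with 0.263, 0.323, 3.18 and 13.04 RPKM in tumor stroma and 1.43, 0.0809, 2.61 and 0.639 RPKM in healthy stroma (2.18, adjusted p = 0.332). The T cell markers summed to 0.313, 0.462, 6.02 and 10.3 RPKM, and the B cell markers to 0.396, 0.248, 1.49 and 9.13 RPKM, in the same 4 tumor libraries. These cells are CD45+ and outside the stromal gate, and their part in the Ccr7 level was not tested. Ccrl2 was at 2.10, 0.857, 12.2 and 10.7 RPKM in tumor stroma, below the healthy libraries in the first pair and above them in the second (1.14, adjusted p = 0.346). With libraries 3 and 4 alone, chosen after seeing the data, its log2 fold change was 1.95 ± 0.27 (adjusted p = 0.00922).

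Of 7 genes tested between tumor and healthy stroma, 2 passed, where 8.40% of all genes did. Ccr1 was at 0.109, 0.0518, 0.138 and 0.249 RPKM in healthy and at 0.540, 0.197, 4.18 and 4.46 RPKM in tumor stroma (log2 fold change 4.38 ± 1.01, adjusted p = 0.0303). Cx3cr1 was at 0.00344, 0.0172, 0.0779 and 0.0542 RPKM in healthy and at 0.455, 0.151, 0.163 and 0.511 RPKM in tumor stroma (3.47 ± 0.90, adjusted p = 0.0435). Both calls were fragile. Ccr1 passed in 3 of the 8 fits that left out a library, and Cx3cr1 in 0 of 8, with adjusted p between 0.0564 and 0.123. In the other settings Ccr1 passed in 7 of 10 and Cx3cr1 in 5 of 9. The neutrophil markers, whose cells carry Ccr1, summed to 40.9, 8.46, 1508 and 511 RPKM in tumor stroma and to 6.23 to 43.2 RPKM in healthy stroma, highest in the libraries with the most Ccr1. Neutrophils are CD45+ and outside the stromal gate, and the part of their RNA in the stromal Ccr1 level was not tested. Ccr2 had 0.361, 0.293, 0.781 and 1.42 RPKM in tumor stroma and 0.0394 to 0.301 RPKM in healthy stroma (2.86, adjusted p = 0.0506). It passed in 7 of 10 other settings, with adjusted p between 0.00127 and 0.0496, and in 1 of the 8 fits that left out a library. For Ccr1, Cx3cr1 and Ccr2 the other settings include the fit of tumor stromal libraries 3 and 4 alone, added after seeing the data. Ccr1 and Ccr2 passed in that fit and Cx3cr1 did not.

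**Figure D5:**
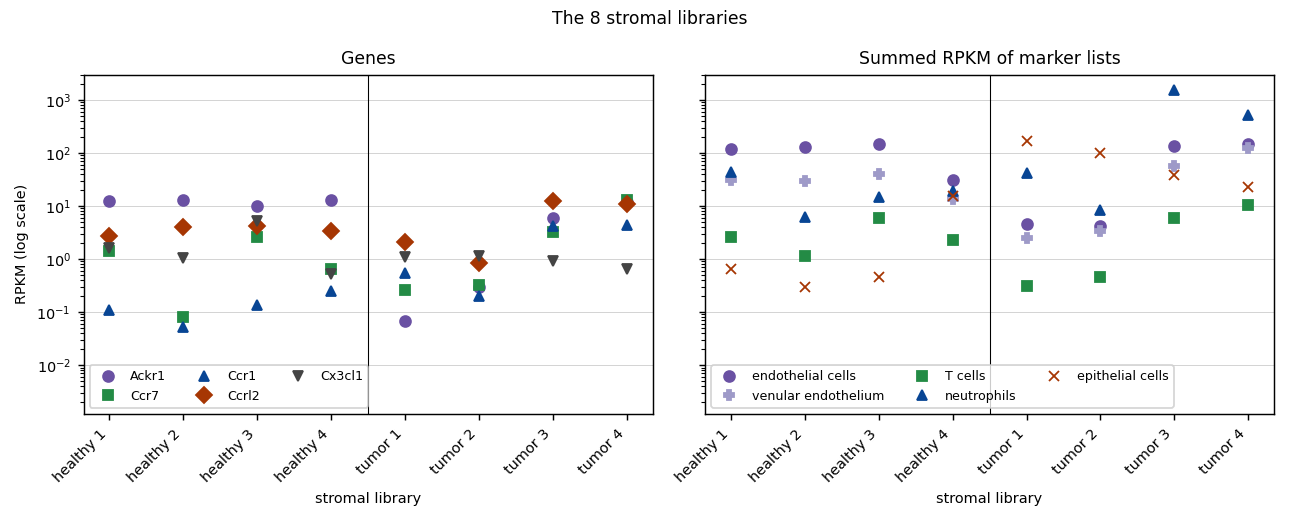
RPKM (log axis) of 5 of the genes on the left and summed RPKM of 5 marker lists on the right in the 4 healthy and 4 tumor stromal libraries, with a symbol per library. Tumor libraries 3 and 4 hold 6.03 and 11.9 RPKM of Ackr1 with venular sums of 55.6 and 126 RPKM, and tumor libraries 1 and 2 hold 0.0672 and 0.303 RPKM with sums of 2.49 and 3.32 RPKM.

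Cx3cl1 was highest in colon cells. It was at 0.754, 0.665, 0.732 and 0.128 RPKM in healthy and at 0.433, 1.32, 1.53 and 1.40 RPKM in tumor epithelial cells, which overlapped (log2 fold change 0.50 ± 0.37, adjusted p = 0.379). Healthy stroma had 1.64, 1.05, 5.10 and 0.531 RPKM and tumor stroma 1.07, 1.16, 0.906 and 0.640 RPKM (-0.70, adjusted p = 0.525). Cx3cr1, its receptor, was at most at 0.511 RPKM in the colon cells, so the highest levels of ligand and receptor were in different sorted cells. None of the 3 genes tested between tumor and healthy epithelium passed with edgeR, where 15.4% of all genes did. At an unadjusted p under 0.05 there were 0, a count without the share of all genes beside it. Limma-voom and DESeq2 passed none either. Ccrl2 was at 0.266 to 0.514 RPKM in tumor and at 0.0319 to 0.136 RPKM in healthy epithelium, with no overlap in RPKM (1.07, adjusted p = 0.336).

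Between tumor stromal and epithelial cells none of 7 genes tested passed with edgeR, where 0.0294% of all genes did. At an unadjusted p under 0.05 there were 6, a count without the share of all genes beside it. The adjusted p was 0.0616 for Ccrl2, 0.0622 for Ccr2 and 0.0744 for Ccr1. By title only 2 animals gave a library to both cell types, tumor stromal libraries 3 and 4 with tumor epithelial libraries 1 and 2. With the animal as a block, a fit that rests on these pairs, 5 of 7 genes passed where 13.1% of all genes did, with a log2 difference of 4.97 ± 0.38 for Ccrl2 (adjusted p = 0.000959), 8.70 ± 1.12 for Ccr7 (0.00513) and 7.54 ± 1.03 for Ccr1 (0.00628), all higher in stroma. DESeq2 and a fit of all 40 libraries passed 6 each, where 7.32% and 7.86% of all genes passed. Without tumor stromal library 1, or without library 2, 4 genes passed, where 4.72% and 4.47% of all genes did.

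The ligands of these receptors were followed as a list of 13 genes beside the 8. In tumor against blood neutrophils 2 of 4 tested rose and none fell, where 16.3% of all genes passed in either direction. Ccl3, which binds Ccr1, was at 280, 1501, 299 and 253 RPKM in tumor neutrophils and at 0.566, 0.913, 19.7 and 10.6 RPKM in blood (log2 fold change 6.52 ± 1.42, edgeR adjusted p = 0.0102). Ccl2, the ligand of Ccr2, rose by 5.52 ± 1.48 (adjusted p = 0.0271), with library 2 at 47.5 RPKM and the others at 1.01 to 1.92 RPKM. The median log2 fold change of the 4 ligands was 3.25, against 0.11 over all genes. In tumor against blood monocytes 2 of 7 rose and none fell, where 7.76% of all genes rose. Ccl2 was at 12.8, 30.5, 57.8 and 20.6 RPKM against 7.73, 7.08, 1.55 and 1.09 RPKM in blood (3.11 ± 0.70, adjusted p = 0.0126), and Ccl24, which binds Ccr3, was at 0.308 to 11.0 RPKM against 0.0197 to 0.446 RPKM (4.34 ± 1.12, adjusted p = 0.0239). The median of the 7 was 1.24, against -0.03 over all genes. In tumor monocytes Ccl2 was thus above, and its receptor Ccr2 below, every blood library.

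In stroma 1 of 11 ligands tested rose and 3 fell between healthy colon and tumor, where 8.40% of all genes passed in either direction. Ccl11 (eotaxin, for Ccr3) was at 46.3, 42.9, 37.7 and 125 RPKM in healthy and at 0.120, 0.978, 1.54 and 1.22 RPKM in tumor stroma (log2 fold change -5.69 ± 0.82, adjusted p = 0.00664). Rarres2, which encodes the chemerin that Ccrl2 binds, was at 57.0, 26.5, 45.1 and 40.1 RPKM in healthy and at 0.0988, 0.291, 2.93 and 1.02 RPKM in tumor stroma (-4.99 ± 0.87, adjusted p = 0.0118). Ccl21a, a Ccr7 ligand, was at 25.9, 5.92, 1.73 and 0.869 RPKM in healthy and at 0.0289 to 0.602 RPKM in tumor stroma (-4.96 ± 1.29, adjusted p = 0.0451). It belongs to a group of near-identical genes, so its counts are uncertain. Ccl3, which was high in tumor neutrophils, rose (3.98 ± 0.94, adjusted p = 0.0329). The part of neutrophil RNA, whose marker sums in the stromal libraries are given above, in this rise was not tested. The median of the 11 was -2.35, against 0.03 over all genes. The fibroblast marker sums given above were lower in the same tumor libraries, and their part in these falls was not tested. In healthy colon 7 of 10 ligands tested were higher in stroma than in epithelium and 1, Ccl6, was lower, where 30.9% of all genes passed. In epithelium 2 of 3 fell in tumors, where 15.4% of all genes passed in either direction: Ccl6 fell by 3.78 and Ccl9 fell by 2.48 on the log2 scale (adjusted p = 0.00542 and 0.00228). Ccl19, the other Ccr7 ligand, was at most at 0.00438 RPKM in all 40 libraries.

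Chemerin signals through Cmklr1, which belongs to a list of 18 other chemokine and chemerin receptors. Cmklr1 rose in tumor monocytes, at 22.1, 15.6, 19.5 and 22.1 RPKM against 6.40, 2.83, 3.17 and 1.81 RPKM in blood (log2 fold change 2.77 ± 0.35, adjusted p = 0.000502). Cxcr4, the receptor for Cxcl12, was at 45.4, 42.1, 65.3 and 51.6 RPKM against 4.63, 12.3, 6.90 and 3.52 RPKM (3.16 ± 0.41, adjusted p = 0.000556), and Ackr3 rose from at most 3 counts in each blood library to between 0.0908 and 0.974 RPKM (adjusted p = 0.004). These were 3 of 9 tested, where 7.76% of all genes rose, none fell, and the median was 0.66 against -0.03 over all genes. In neutrophils none of 9 tested rose between blood and tumor and Ackr4 fell (-4.19 ± 0.89, adjusted p = 0.00872), where 16.3% of all genes passed. In tumor stroma Cxcr2, itself a neutrophil marker, rose with library values of 1.43, 0.559, 42.3 and 30.9 RPKM, and Ackr3 and Ackr4 fell, 3 of 15 tested against 8.40% of all genes.

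Blood neutrophils of tumor-bearing mice exceeded monocytes in 5 of 10 other receptors tested, where 38.0% of all genes differed in either direction, namely Cxcr1, Cxcr2, Cxcr4, Cxcr5 and Ackr4, and Cmklr1 was among those lower in neutrophils. Between tumor-bearing and healthy blood Cxcr1 rose (1.59 ± 0.36, adjusted p = 0.0291) and Cxcr3 fell (-3.69 ± 0.79, adjusted p = 0.0228) in neutrophils. There 10 were tested and 4.01% of all genes passed. None of 9 passed in monocytes, where 0.209% of all genes did. Among 14 genes of signaling from chemokine receptors, the G protein regulator Rgs1 rose in tumor neutrophils (1.81 ± 0.49, adjusted p = 0.0289) and in tumor monocytes (2.91 ± 0.40, adjusted p = 0.000788). Rgs2 and Pik3r5 fell in neutrophils, and Grk6, a receptor kinase, fell in monocytes. All 14 were tested, where 16.3% of all genes passed in neutrophils and 11.7% in monocytes. The Cx3cl1 proteases Adam10 and Adam17 were measured in every group and neither passed both thresholds between tumor and blood or between tumor-bearing and healthy mice, in any cell type. Each passed the adjusted p alone in 1 of these comparisons. Adam17 was at 11.6, 9.27, 13.1 and 12.5 RPKM in tumor monocytes against 8.70, 4.64, 5.77 and 6.79 RPKM in blood (1.12, adjusted p = 0.0084). Adam10 was higher in tumor than in healthy epithelium, with a log2 fold change of 1.02 ± 0.24 (adjusted p = 0.012).

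The genes whose RPKM pattern was most like each of the 8 were sought over the 40 libraries among 4884 genes with a group mean of at least 5 RPKM, as Pearson's r of log2(RPKM + 1). The libraries share cell types, so r describes groups more than single libraries. C5ar1, the complement C5a receptor, was nearest to Ccr1 (0.98), followed by Cd33 and Slpi (both 0.97). F13a1, a classical monocyte gene, was nearest to Ccr2 and Tifab to Cx3cr1 (0.99 and 0.98), and Ccr2 and Cx3cr1 themselves correlated at 0.96. Irak2, Ptgs2 and Cd80, all known to be induced on activation of myeloid cells, were nearest to Ccrl2 (each 0.92). Jam2, an endothelial junction gene, was nearest to Ackr1 (0.99). Immunoglobulin constant genes, led by Ighg3 (0.89), were nearest to Ccr7, and Ccnd1 and Bcam (both 0.88) to Cx3cl1. Ccr3 had no gene above 0.73.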

How the data were processed

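RNA of 200000 to 500000 sorted cells per library was amplified into cDNA and sequenced. The authors mapped the reads to mm10 (Bowtie 2 is cited) and counted them with HTSstation. The annotation release, the treatment of reads that map to several places and the use of strand are not given in the sources used here. The deposited values were expected counts, not normalized, and RPKM values, which the authors computed from these counts. The strain label's number rises by 1 per library from Sv129 to Sv152 in the 24 libraries of tumor-bearing mice. The labels give replicate number 3 to a pair of tumor stromal libraries, and the second is called 4 here.

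Expected counts were rounded, which changed a library total by at most 1105. Each comparison was fitted to its own libraries, after filterByExpr and TMM, with edgeR 4.0.16 (robust quasi-likelihood F-test, R 4.3.3), and p-values were adjusted by Benjamini-Hochberg over all genes tested. A gene was called, and written of as rising or falling, at an adjusted p under 0.05 with a log2 fold change beyond 1.5 in size. Standard errors were the absolute log2 fold change divided by the square root of F. Fold changes came from counts, and levels and ratios of means from RPKM. Where all libraries of a group had 3 counts or fewer, a lower bound replaced the fitted fold change. Comparisons that share blood libraries are not independent. Alternatives were DESeq2 1.42.0, limma-voom (limma 3.58.1), all 40 libraries in 1 fit, no filter, a filter at 10 counts in every library, RLE size factors, log2 RPKM in limma (pseudocount 1 or 0.1), the replicate number or the animal as a block, and leaving out each library in turn. Fits of tumor stromal libraries 3 and 4 alone were added after seeing the data. The scripts were tested on simulated data. Replicates of most groups came from separate animals or pools of animals by title, and intervals cover the spread between these libraries. By title some animals gave libraries to both groups compared, as for blood neutrophils and monocytes, blood and tumor cells, and healthy stroma and epithelium. The main fits, the interaction among them, took libraries as independent. An animal block was fitted only between tumor neutrophils and monocytes and between tumor stroma and epithelium.

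The 8 genes, the lists of ligands, receptors, signaling genes, proteases and cell markers, and the alternatives were chosen with earlier results of these data known. Genes named outside the 8 are list members, with values for those called, and the 3 genes nearest to each of the 8 in RPKM pattern. A gene of the list of other receptors is counted there but not reported here. The neighbours Ccr1l1, Csrnp1 and Cadm3, and single marker genes given beside a result, were chosen after their values were seen.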

Additional observations from a re-analysis of the deposited data

Results flagged for a closer look

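The highest or lowest of 4 libraries stood far from the others, by Dixon's 95% criterion, in 3 of the 33 sets of 4 libraries tested (9.09%). Only sets whose highest library reached 1 RPKM were tested, which favors sets with a single high library. All 3 flagged sets reached it only through the flagged library. The share therefore cannot be set against the rate of about 1 in 20 that chance gives without such a choice. Ccr3 was at 21.6 RPKM in healthy blood monocyte library 2 and at 0.0484 to 0.338 RPKM in the other libraries of that group. In tumor neutrophil library 2 Ccr3 was at 2.34 RPKM, against 0.481 to 0.742 RPKM. Ccr7 was at 2.33 RPKM in tumor monocyte library 2, against 0.453 to 0.570 RPKM.

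By the interaction test, Ccr1 changed unequally in neutrophils and monocytes between blood and tumor, with -2.41 on the log2 scale for neutrophils relative to monocytes (edgeR adjusted p = 0.0205).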

How the results depend on the processing

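Of the values recomputed for the 33 pairs of a gene and a comparison that passed the adjusted p or were picked from those that missed it, 505 kept their side of the thresholds, 30 gained a call, 30 lost one and none changed direction. Over all 8 genes and 12 comparisons 85 calls were gained and 30 lost. Of the gains, 31 were between tumor stroma and epithelium and 18 in genes that the filter on low counts had kept out. The number of the 8 genes called moved by more than 1.5 times in these cases. In tumor against blood neutrophils no filter gave 2 and all 40 libraries in 1 fit gave 2, against 1. Between neutrophils of tumor-bearing and healthy blood, limma-voom, the fit of all 40 libraries and limma on log2 RPKM (pseudocount 1 or 0.1) gave 1, against 0. Between monocytes of such blood, DESeq2, the filter at 10 counts in every library and the fit of all 40 libraries gave 1, against 0. In tumor against healthy stroma no filter gave 1, the pseudocount of 1 gave 0 and that of 0.1 gave 1, against 2. The filter at 10 counts gave 2 in each comparison of blood neutrophils with monocytes, against 4, 0 between tumor neutrophils and monocytes, against 2, and 0 between healthy stroma and epithelium, against 2, since it leaves fewer genes in the test. DESeq2 gave 4 between tumor neutrophils and monocytes, against 2, where 15.9% of all genes passed, against 7.45% in the main fit. Between tumor stroma and epithelium DESeq2, all 40 libraries and tumor stromal libraries 3 and 4 alone gave 6 each, and the animal block gave 5, against 0. With tumor stromal libraries 3 and 4 alone 22.6% of all genes passed, and the other shares are given above. For the interaction limma-voom and both pseudocounts gave 2, and all 40 libraries 0, against 1. Except for the filter, the cause was not tested.

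With 1 library left out, the count ranged from 1 to 2 in tumor against blood neutrophils, 4 to 5 in monocytes, 0 to 1 between neutrophils of tumor-bearing and healthy blood, 0 to 0 between monocytes, 0 to 1 in epithelium and 0 to 2 in stroma. It ranged from 4 to 4 and 4 to 5 between blood neutrophils and monocytes of tumor-bearing and healthy mice, 1 to 4 between those of the tumor, 0 to 4 and 2 to 4 between stroma and epithelium of tumor and healthy colon, and 1 to 2 for the interaction. The 4 between tumor neutrophils and monocytes came without tumor neutrophil library 1, where 11.2% of all genes passed.

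Deviations of same-numbered libraries correlated at -0.26 to 0.34 over 8241 genes. Only between blood monocytes of tumor-bearing and healthy mice were all the pairs above 0, at 0.271, 0.209, 0.0554 and 0.327. The main fits did not take the numbers as pairs. With the replicate number as a block, the count between tumor neutrophils and monocytes was 1, against 2, and in stroma Ccr2 was gained (adjusted p = 0.0143) and Cx3cr1 lost (0.0881).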
